A study of Mus musculus with 3 samples.

Results

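The AP-1, Batf and Atf3 factors are 10 genes of the basic leucine zipper class of transcription factors, chosen by name. They are Fos, Fosb, Fosl1 and Fosl2, Jun, Junb and Jund, and Batf, Batf3 and Atf3. The choice was made with earlier results of these data known. Counts and medians of these genes set beside all genes therefore describe them and test nothing. All 10 were measured, out of 19938 genes, each by 1 probe identifier of the microarray that names no other gene. A probe below means such an identifier, not a single oligonucleotide. The data are 3 single-colour Affymetrix arrays of total RNA from mouse splenic CD4 T cells, 1 array for each of the conditions Th0, Th22 and Th17. The T cells came from the OT-II T cell receptor transgenic strain B6.Cg-Tg(TcraTcrb)425Cbn/J, were sorted as naive (CD4+CD25-CD62LhighCD44low), and were activated with ovalbumin peptide on T cell-depleted splenic antigen-presenting cells from Il23a-/- mice. All conditions shared these T cells, the peptide and the Il23a-deficient presenting cells. Th0 cells received no cytokine, Th22 cells received IL-6 alone and Th17 cells received IL-6 + TGFβ. The cells were purified by magnetic sorting after 60 hours. The age of the mice, the cytokine doses and any pooling of animals are not stated in the labels.

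AP-1 is a dimer of 2 basic leucine zipper proteins, classically a Fos protein with a Jun protein, that binds a short DNA element called the TPA response element (TRE). Fos, Fosb, Jun and Junb are immediate early genes of T cell receptor and growth factor signalling. Batf and Batf3 lack a transactivation domain of their own, pair with Jun proteins, and in T cells bind together with the interferon regulatory factors Irf4 and Irf8. Batf is required for Th17 differentiation in mice. Atf3 is a stress-induced factor that binds cyclic AMP response elements (CREs) and often acts as a repressor.

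The deposited values are differences from the median of each probe over the 3 arrays, so a value of 0 marks the middle array and the expression level itself is not known. They were read as log2 values, in which a difference of 1 is 2-fold, with larger values meaning more RNA. Neither the log base nor this direction is stated in the sources used here. With 1 array per condition no difference has a replicate check, no test was possible, and a call here means a difference of at least 2-fold. The members have 1 probe each, so the only error at hand came from 999 other genes with more than 1 probe. Their first 2 probes differed by at most 0.30 log2 (Th22 against Th0), 0.39 log2 (Th17 against Th0) and 0.36 log2 (Th17 against Th22) in 95% of genes. These limits are called the probe error below, and they leave out the spread between cultures. Many of these genes had no probe that differed between the 2 arrays, which lowers the limits. Among genes with a differing probe they were 0.33 log2 (Th22 against Th0), 0.46 log2 (Th17 against Th0) and 0.41 log2 (Th17 against Th22). The same members lay beyond these wider limits.

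The proximal promoters of Atf3, Fosb, Fos and Jun are shown. These genes differed between conditions beyond the probe error and are known to be switched on through CRE, TRE and related elements. Each window is the 250 bases before the RefSeq transcription start in GRCm38.p6, read 5′ to 3′ on the gene's own strand. Capitals mark a match to 1 of the motifs named after the sequences. The windows of Batf3 and Fosl2, which also differed beyond the probe error, held none of these motifs and are not shown.
Atf3: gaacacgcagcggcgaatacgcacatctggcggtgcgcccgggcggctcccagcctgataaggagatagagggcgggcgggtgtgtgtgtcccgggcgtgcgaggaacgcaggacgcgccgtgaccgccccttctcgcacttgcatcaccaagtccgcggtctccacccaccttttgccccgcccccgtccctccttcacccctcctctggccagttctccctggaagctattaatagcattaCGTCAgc
Fosb: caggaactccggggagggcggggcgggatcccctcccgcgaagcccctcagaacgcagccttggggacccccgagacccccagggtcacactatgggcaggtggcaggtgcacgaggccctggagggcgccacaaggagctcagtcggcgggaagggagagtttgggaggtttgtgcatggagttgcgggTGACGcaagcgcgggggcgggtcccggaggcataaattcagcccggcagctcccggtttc
Fos: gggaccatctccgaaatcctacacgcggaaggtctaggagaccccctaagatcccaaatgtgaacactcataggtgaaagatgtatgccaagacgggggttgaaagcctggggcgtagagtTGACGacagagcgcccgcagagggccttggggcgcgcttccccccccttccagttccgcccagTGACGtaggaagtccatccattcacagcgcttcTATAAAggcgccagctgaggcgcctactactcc
Jun: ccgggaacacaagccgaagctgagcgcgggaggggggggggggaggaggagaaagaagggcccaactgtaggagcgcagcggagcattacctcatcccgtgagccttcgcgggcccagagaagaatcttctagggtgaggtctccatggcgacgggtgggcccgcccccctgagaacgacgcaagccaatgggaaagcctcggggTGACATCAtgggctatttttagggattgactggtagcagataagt
The Atf3 window is chr1:191183334-191183583 on the minus strand, that of Fosb chr7:19310046-19310295 on the minus strand, that of Fos chr12:85473640-85473889 on the plus strand and that of Jun chr4:95052223-95052472 on the minus strand.

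A promoter entry was matched for 9 of the 10 members, and 5 motifs given by letters were searched on both strands of these windows, with the CArG box of serum response factor by name. The full TRE (TGANTCA) was present in 0 of 9 members and in 6.87% of 27025 promoters of the same length, and the full CRE (TGACGTCA) in 0 of 9 and in 1.62%. The CRE half-site (TGACG, which the full CRE contains) was found in Fos (2 matches), Fosb, Junb, Batf and Atf3 (1 match each) and in 17.9% of all promoters. In Atf3 it is read on the opposite strand, as CGTCA, starting 7 bases before the transcription start. Jun held the TRE variant TGACATCA, known from the Jun promoter as its own AP-1 element, 45 bases before its start; 3.02% of promoters hold it. A TATA box (TATAAA) was found in Fos alone among the 9, 33 bases before its start, and in 13.0% of promoters. The CArG box was in 0 of 9 and in 1.40% of promoters. These are matches of letters in a window, not sites of measured binding. In the windows with the half-site GC content was 58.4% (Fos), 68.8% (Fosb), 66.4% (Junb), 46.4% (Batf) and 65.2% (Atf3). The median over all promoters was 52%, and the shares of promoters were not adjusted for GC content.

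Across the 10 members 1 gene, Atf3, stood far from the others in the size of its differences. Its range over the 3 conditions was 3.46 log2, and the next were those of Fosb (1.23 log2), Jun (0.82 log2), Batf3 (0.64 log2) and Fos (0.62 log2). Fosl2 ranged over 0.45 log2, Jund over 0.29 log2, Fosl1 over 0.26 log2, Batf over 0.09 log2 and Junb over 0.08 log2. Between at least 1 pair of conditions 6 members differed by more than the probe error, and 4 did not, namely Fosl1, Junb, Jund and Batf. Of all genes 15% differed by more than it in at least 1 of the 3 comparisons. No member was equal on all 3 arrays, against 37.7% of all genes. Equal genes may be undetected ones, which the centred values cannot tell apart from unchanged ones. The shares of all genes beyond the probe error, here and below, count these equal genes too. They are therefore lower than the shares among genes not equal on all 3 arrays.

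**Figure D1:**
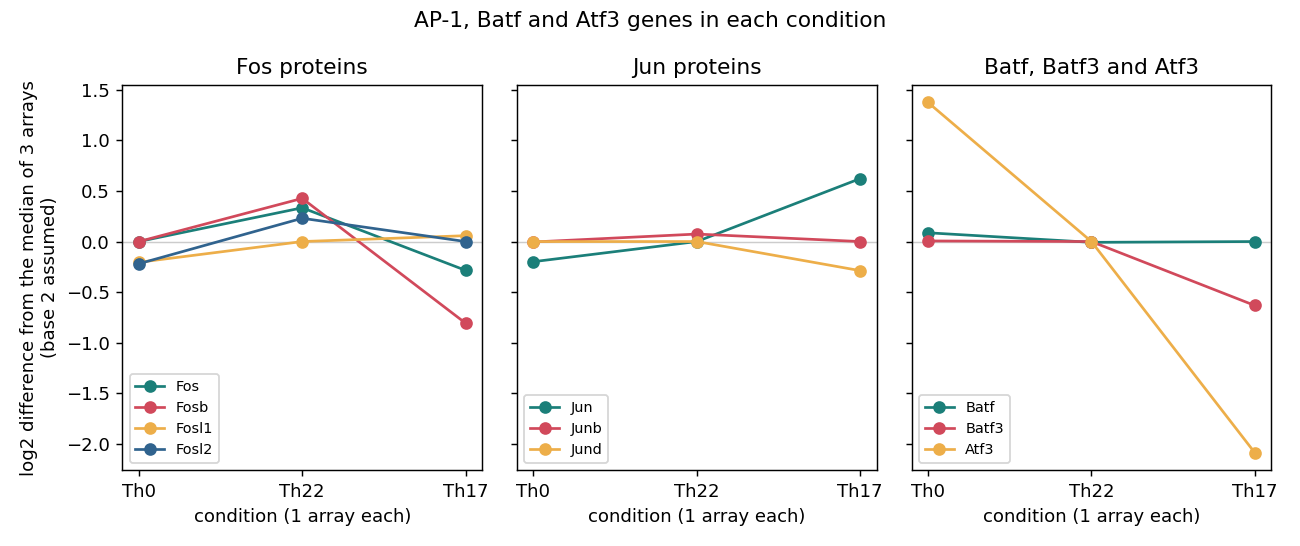
Value of each member in Th0, Th22 and Th17 (x axis, 1 array each, lines only join the points of a gene), as the log2 difference from the median of the 3 arrays (y axis, base 2 assumed). Atf3 spans 3.46 log2 from Th0 down to Th17, Fosb, Fos and Batf3 are lowest in Th17, and Jun is highest there.

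Atf3 was highest in Th0, intermediate in Th22 and lowest in Th17. Its centred value was 1.38 log2 in Th0, 0 in Th22 and -2.09 log2 in Th17. Both steps exceeded the probe error. Relative to Th0, Atf3 was 2.59-fold lower in Th22 and 11.0-fold lower in Th17, and Th17 was 4.25-fold below Th22. Counted from the lowest of 19938 genes, its difference ranked 27 for Th22 against Th0, 66 for Th17 against Th22 and 18 for Th17 against Th0. When the 3 columns were forced to equal spread by quantile normalization, the difference between Th17 and Th22 shrank from -2.09 log2 to -1.18 log2 and stayed past 2-fold.

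Batf3, which pairs with Jun proteins and is known as a factor of dendritic cell development, was also lowest in Th17. Its centred values were 0.0060 log2 in Th0, 0 in Th22 and -0.63 log2 in Th17. Th0 and Th22 thus lay within the probe error of each other, and Th17 lay below both. Batf3 in Th17 was 1.56-fold below Th0 and 1.55-fold below Th22, under the 2-fold threshold. Quantile normalization brought these differences from -0.64 to -0.39 log2 and from -0.63 to -0.39 log2. Batf, its close relative and the member with the best known part in Th17 cells, had values of 0.09 log2 in Th0, -0.0078 log2 in Th22 and 0 in Th17. The largest fold between its arrays was 1.07, so no difference of Batf beyond the probe error was detected among the 3 conditions.

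Among the Fos genes, Fosb and Fos had the same order, with Th22 highest and Th17 lowest. Fosb, whose short splice form lacks part of the transactivation domain, had 0 in Th0, 0.43 log2 in Th22 and -0.81 log2 in Th17. Its 3 arrays lay further apart than the probe error. Fosb was 2.35-fold lower in Th17 than in Th22 and 1.75-fold lower than in Th0, and it was 1.34-fold higher in Th22 than in Th0. Under quantile normalization its difference between Th17 and Th22 went from -1.23 to -1.01 log2, only just past 2-fold. That between Th17 and Th0 went from -0.81 to -0.49 log2. Fos, the founding member, had 0 in Th0, 0.33 log2 in Th22 and -0.28 log2 in Th17. Th22 stood above both others by more than the probe error, while Th17 and Th0 did not differ beyond it. The step of Fos from Th0 to Th22, 0.334 log2, was close to the wider limit of 0.328 log2. Fos was 1.54-fold lower in Th17 than in Th22.

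Fosl1 and Fosl2 encode the Fos-related antigens Fra-1 and Fra-2, which lack the transactivation domain of Fos, and both were lowest in Th0. Fosl2 had -0.22 log2 in Th0, 0.23 log2 in Th22 and 0 in Th17. Only its ends differed by more than the probe error, with Th22 1.37-fold above Th0. Fosl1 had -0.21 log2 in Th0, 0 in Th22 and 0.06 log2 in Th17, and no pair of its values differed beyond the probe error. In Th22 against Th0 all 4 Fos genes were higher by some amount, 0.21 to 0.45 log2, and so were all 6 measured T cell markers (0.06 to 0.42 log2). The part of that shift in the Fos values was not tested. Against Th17, the values in Th22 were higher for 3 Fos genes and lower for Fosl1.

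Of the Jun genes only Jun differed between conditions by more than the probe error. Jun, a strong transactivator and a partner of all Fos proteins, had -0.20 log2 in Th0, 0 in Th22 and 0.62 log2 in Th17. Th17 lay above both others by more than the probe error, and Th0 and Th22 did not differ beyond it. Jun was 1.77-fold higher in Th17 than in Th0 and 1.54-fold higher than in Th22, under the 2-fold threshold. Jund, which in many cells is expressed without stimulation, had 0 in Th0, 0 in Th22 and -0.29 log2 in Th17, within the probe error. Junb, a partner of Batf in Th17 cells, had -0.0043 log2 in Th0, 0.07 log2 in Th22 and 0 in Th17, and its arrays were at most 1.06-fold apart. Jun was the member with the largest difference towards Th17, ranking 391 from the highest of 19938 genes against Th0 and 396 against Th22.

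The comparison of Th22 with Th0 describes cells given IL-6 alone. Of the 10 members 1 (Atf3, lower) was at least 2-fold apart, against 0.808% of all genes and 1.3% of the genes not equal on all 3 arrays. Beyond the probe error lay 4 members, against 7.67% of all genes: Fos, Fosb and Fosl2 were higher in Th22 and Atf3 was lower. The median difference of the members was 0.14 log2, with the median of all genes at 0 and that of the 6 measured T cell markers at 0.24 log2. Without regard to sign the median size was 0.20 log2 in the members and 0.08 log2 in the genes not equal on all 3 arrays.

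The comparison of Th17 with Th22 describes the addition of TGFβ to IL-6. In it 2 of 10 members, Atf3 and Fosb, were at least 2-fold apart, both lower in Th17, against 2.61% of all genes and 4.18% of those not equal on all arrays. Beyond the probe error lay 5 members, against 9.97% of all genes: Fos, Fosb, Batf3 and Atf3 were lower in Th17 and Jun was higher. The median difference was -0.26 log2 and the median size 0.45 log2, beside 0.09 log2 in genes not equal on all arrays. Beside these lower values, all 6 measured T cell markers (Cd3d, Cd3e, Cd3g, Cd4, Cd5 and Cd28) were lower in Th17 than in Th22 by some amount, with differences from -0.59 to -0.06 log2 and a median of -0.31 log2. The part of that shift in the members' differences was not tested, and in such bulk RNA fewer cells of a type and less RNA per cell cannot be told apart.

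The comparison of Th17 with Th0 describes cells given both cytokines. Atf3 alone of the 10 members was at least 2-fold apart, against 3.03% of all genes and 4.86% of those not equal on all arrays. Beyond the probe error lay 4 members, against 10.3% of all genes: Fosb, Batf3 and Atf3 were lower in Th17 and Jun was higher. The median difference was -0.19 log2 and the median size 0.29 log2, beside 0.09 log2 in genes not equal on all arrays. This comparison and that of Th22 with Th0 share the single Th0 array.

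**Figure D2:**
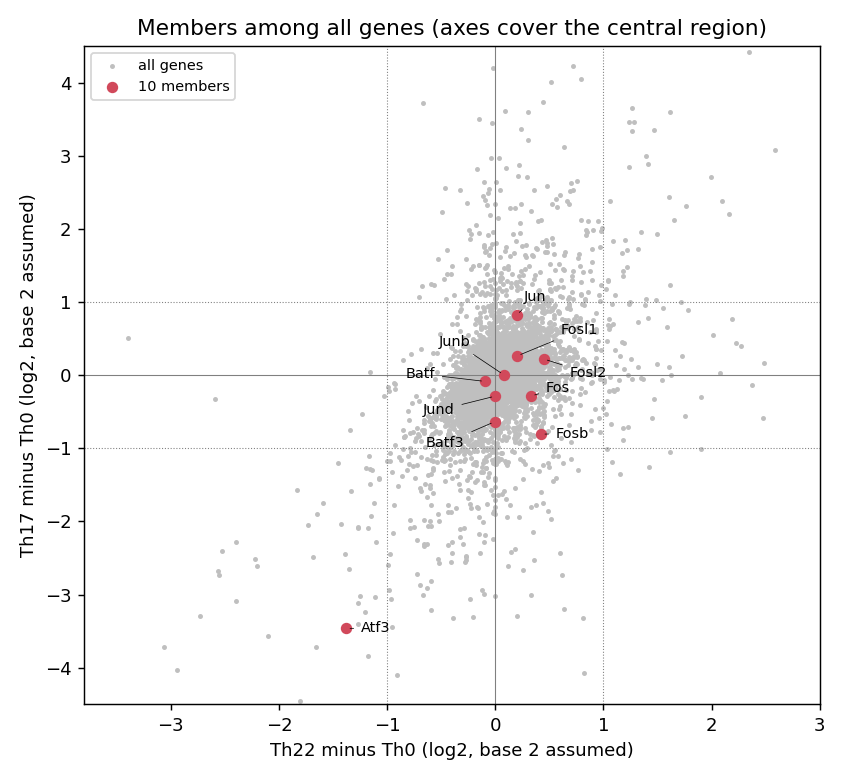
Difference of Th22 from Th0 (x axis) against that of Th17 from Th0 (y axis), in log2 with base 2 assumed, for all genes (grey) and the 10 members (red); dotted lines mark 2-fold, both axes share the Th0 array, and the axes leave out the most extreme genes. Atf3 lies at -1.38 and -3.46, far from the other 9, which are all inside 2-fold on both axes.

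Markers of cells that a magnetic sort could leave behind were mostly flat, and since the values carry no levels they show only differences between arrays, for the T cell markers too. Of 5 measured B cell markers 4 were equal on all 3 arrays, as were 4 of 8 myeloid and dendritic cell markers, and the rest were at most 0.23 log2 apart in each comparison. Of 5 CD8 and NK cell markers 2 (Ncr1 and Klrb1c) were equal on all arrays. Cd8b1, a chain of the CD8 coreceptor, was 2.20-fold lower in Th17 than in Th22 and 2.61-fold lower than in Th0. Among the members, Atf3, Fosb, Batf3, Fos and Jund were also lower in Th17 than in both other conditions by some amount. Jun and Fosl1 were higher in Th17 than in both. Cd8a, also on this list, was 0.15 log2 higher in Th17 than in Th22 and 0.05 log2 lower than in Th0. Eomes, a factor of CD8 T and NK cells, was 0.79 log2 higher in Th0 than in both other conditions. The part of these cell types in the members' differences was not tested.

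The genes with values most like those of Atf3 and Fosb were taken as the 3 nearest by Euclidean distance over Th22 minus Th0 and Th17 minus Th0, that is, over 3 arrays. Nearest to Atf3 were Gm12250 (distance 0.12 log2), Gbp7, an interferon-inducible guanylate-binding protein gene (0.28 log2), and Itgb3, which encodes integrin β3 (0.36 log2). Gm12250 was 10.6-fold, Gbp7 9.42-fold and Itgb3 8.68-fold lower in Th17 than in Th0, beside 11.0-fold for Atf3. Nearest to Fosb were Ksr1, a scaffold of the Ras and MAP kinase pathway (0.08 log2), 1810010H24Rik (0.08 log2) and Jarid2, a subunit associated with Polycomb complex 2 (0.08 log2). They were 2.27-fold, 2.37-fold and 2.25-fold lower in Th17 than in Th22, beside 2.35-fold for Fosb.

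Several members are neighbours in the genome. By gene order in the RefSeq annotation, Batf3 and Atf3 lie next to each other on chromosome 1 with 1 measured protein-coding gene, Fam71a, between them. Fam71a was equal on all 3 arrays. Of the 8 nearest measured protein-coding genes outside this pair, 4 on each side, none was more than 1.33-fold apart in any comparison. Against Th0, Th17 values of these 8 ran from -0.41 to 0.07 log2, beside -0.64 log2 for Batf3 and -3.46 log2 for Atf3. Fos and Batf lie on chromosome 12 with Jdp2, which encodes a Jun dimerization protein, between them. Jdp2 in Th22 was 0.29 log2 below both other conditions, within the probe error, and Batf differed little. Of the 8 genes flanking Fos and Batf, Tgfb3 was past 2-fold, 2.08-fold higher in Th22 than in Th0 and 2.12-fold higher than in Th17.

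**Figure D3:**
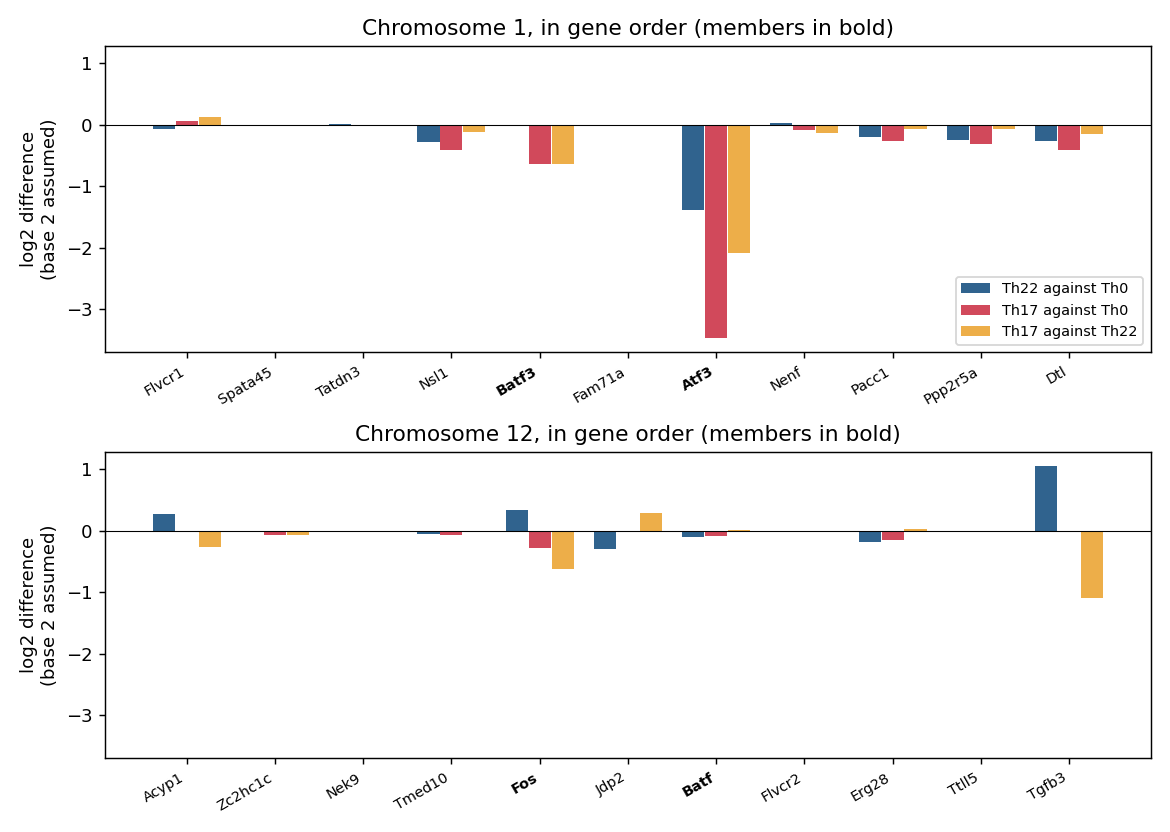
Differences (y axis, log2 with base 2 assumed, 1 bar for each comparison) of the measured protein-coding genes around Batf3 and Atf3 on chromosome 1 and around Fos and Batf on chromosome 12, in gene order (x axis, not to distance; members in bold). Atf3 has the deepest bars, -3.46 log2 for Th17 against Th0, and the gene between it and Batf3 has none.

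Other basic leucine zipper genes were mostly close together across the conditions. Of 23 measured, 0 were at least 2-fold apart for Th22 against Th0, and 1, Maf, for each comparison of Th17. Of all genes 0.808% (Th22 against Th0), 3.03% (Th17 against Th0) and 2.61% (Th17 against Th22) were at least 2-fold apart. The list medians were 0 (Th22 against Th0), 0.02 log2 (Th17 against Th0) and 0.01 log2 (Th17 against Th22). Maf, which drives Il10 in T cells, was 11.4-fold higher in Th17 than in Th22. The next largest towards lower values in Th17 were Crem, a cyclic AMP-responsive factor (-0.87 log2 against Th0), and Nfil3 (-0.85 log2 against Th0), both inside 2-fold. Atf4 and Ddit3, which encode factors of the same stress response as Atf3, differed by -0.11 and -0.23 log2 between Th17 and Th0. Atf3 differed by -3.46 log2 there, and the part of that response in its difference was not tested.

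Among 7 partners that bind beside AP-1 on composite elements, 1 was at least 2-fold apart in each comparison. The shares of all genes were 0.808% (Th22 against Th0), 3.03% (Th17 against Th0) and 2.61% (Th17 against Th22). Irf8 in Th22 was 2.04-fold below Th0, and Runx1 was 2.40-fold higher in Th17 than in Th22 and 2.32-fold higher than in Th0. Irf4, the partner of Batf in Th17 cells, was 0.27 log2 higher in Th17 than in Th0 and 0.06 log2 higher in Th22, inside the probe error in both. The list medians were 0.06 log2 for Th22 against Th0, 0.32 log2 for Th17 against Th0 and 0.26 log2 for Th17 against Th22.

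Of 27 kinases, phosphatases and other regulators upstream of AP-1, 0 were at least 2-fold apart between Th22 and Th0 and 0 between Th17 and Th22. For Th17 against Th0 there were 2: Elk1, a ternary complex factor that drives Fos, was 2.30-fold higher in Th17, and Dusp5, a nuclear ERK phosphatase, was 2.22-fold lower. The list median was 0 in all 3 comparisons. Beside this list and the next, 0.808% (Th22 against Th0), 3.03% (Th17 against Th0) and 2.61% (Th17 against Th22) of all genes were at least 2-fold apart. Of 16 immediate early genes 0 passed 2-fold for Th22 against Th0, with a median of 0.00040 log2. For Th17 against Th0, 1 was higher (Klf10, a TGFβ-inducible early gene, 3.34-fold) and 2 were lower, the orphan nuclear receptor genes Nr4a2 (2.23-fold) and Nr4a3 (2.59-fold), with a median of -0.03 log2. For Th17 against Th22 only Klf10 passed, 2.57-fold higher, with a median of -0.11 log2. Egr1, induced by the same signals as Fos, was -0.14 log2 in Th17 against Th22, beside -0.62 log2 for Fos and -1.23 log2 for Fosb. In that comparison the 16 immediate early genes ran from -0.88 log2 (Nr4a2) to 1.36 log2 (Klf10). Ier3 was at -0.62 log2, as low as Fos, and Ier5 was at 0.30 log2.

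The last group held T cell effector genes with reported links to Batf or AP-1, of which 20 were measured. They were chosen with earlier results of these data known, so the counts describe the list and test nothing. For Th22 against Th0, 6 were at least 2-fold higher and 4 lower, beside 0.808% of all genes, and the list median was 0.21 log2. For Th17 against Th22, 8 were higher and 4 lower, beside 2.61% of all genes (list median -0.0090 log2). For Th17 against Th0, 10 were higher and 7 lower, beside 3.03% of all genes (list median 1.18 log2). Il2, a classical target of AP-1 with NFAT, was 8.58-fold lower in Th17 than in Th22 and 9.91-fold lower than in Th0. The cytokine genes Il17a, Il17f, Il10, Il4, Ifng, Csf2 and Ccl20 were also past 2-fold in at least 1 comparison, as were Il23r, Rora, Bcl6, Cxcr5, Fasl, Gzmb, Prdm1 and Maf. Icos, a costimulatory receptor gene, was 2.11-fold lower in Th17 than in Th22. Il21 was 4.46-fold higher in Th22 and 4.61-fold higher in Th17 than in Th0. Batf itself differed by at most 0.09 log2 and Junb by at most 0.08 log2 in the same 3 comparisons. Whether the listed genes depend on Batf or Junb in these cells was not tested.

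**Figure D4:**
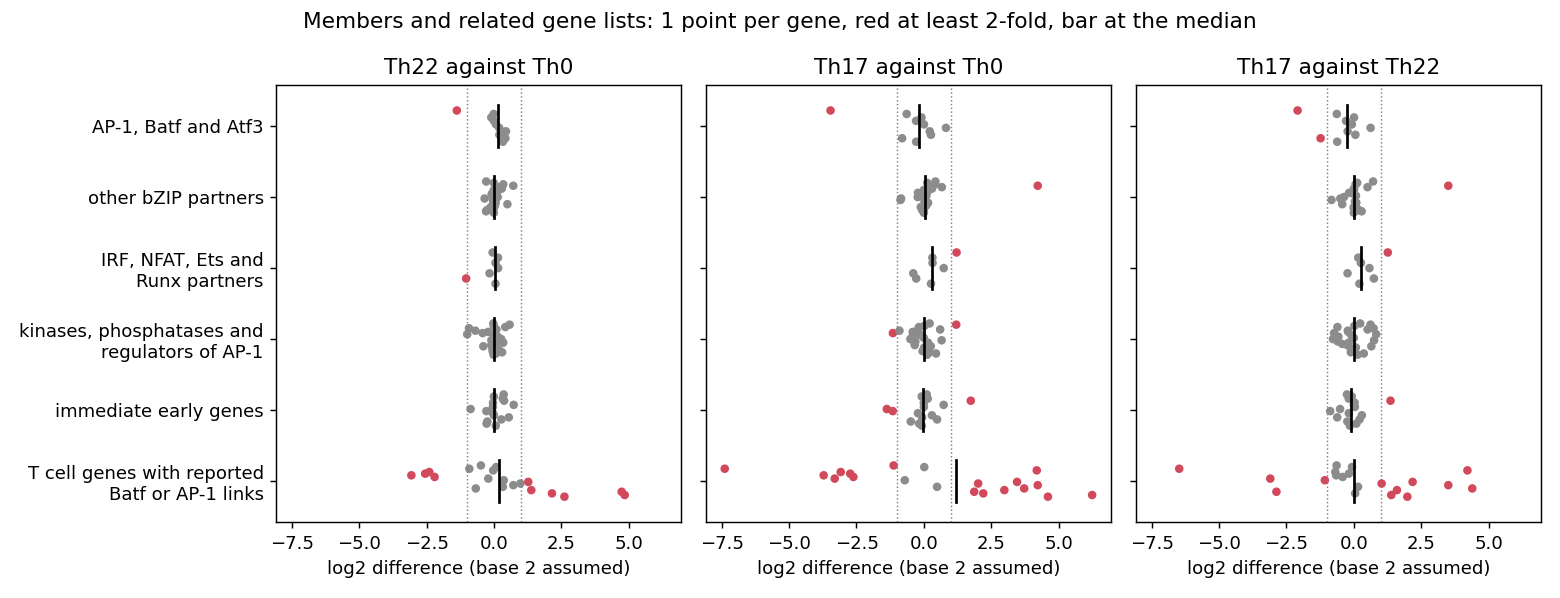
Log2 differences (x axis, base 2 assumed) of the 10 members and of 5 related gene lists (y axis) in the 3 comparisons, with 1 point per gene, red where at least 2-fold apart (dotted lines), and a black bar at each median. Atf3 is the lowest point of the members in each panel, and the T cell effector genes lie furthest from 0 on both sides.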

How the data were processed

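Total RNA of 3 samples was measured on biotin-labelled Affymetrix arrays, per the labels' protocols, and each sample was grouped by its labelled T-helper subset. The deposited table holds 28853 probes on what was taken as a log2 scale, and every probe has a median of exactly 0 over the 3 arrays, so the values are centred per probe. How the probes were summarised and normalized, with which software and log base, is not stated in the labels or the table.

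Gene names came from the annotation of the array platform, updated through Entrez identifiers with a RefSeq gene table of GRCm38.p6 (21698 of 21789 probes with 1 symbol matched). Another 1621 probes with several symbols and 5443 with none were left out. The probes of a gene were averaged, all genes were kept, and a gene was called where arrays differed by at least 2-fold. No test was possible with 1 array per group, signal over background is unknown, and precision is limited by the number of arrays. The counting was tested on simulated data with planted differences. Alternatives were the fold threshold, the log base, quantile normalization, another centring, the probe of largest range and probes with several symbols.

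The members and the related lists were chosen with earlier results of these data known. The text names all members, the list genes past 2-fold, with values for some of the T cell effector genes, and the 3 genes nearest to each member past 2-fold. Crem, Nfil3, Atf4, Ddit3, Irf4, Egr1, Ier3, Ier5, Eomes and the genomic neighbours were named after their values were seen. The TRE variant of the Jun promoter was added after its sequence was seen. Python 3.11.15, pandas 2.3.3, numpy 2.4.6 and matplotlib 3.10.9 were used.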

Additional observations from a re-analysis of the deposited data

How the results depend on the processing

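The members past 2-fold were the same genes under quantile normalization and another centring. They were Atf3 for both comparisons with Th0 and Atf3 with Fosb for Th17 against Th22. Taking the probe of largest range could not change the members, which have 1 probe each. Counting probes with several symbols also left every member's value the same, so neither setting checks the members. At a fold threshold of 3 there were 0 members for Th22 against Th0 (0.296% of all genes) and 1, Atf3, for Th17 against Th22 (1.22%). At a fold threshold of 1.5 there were 4 for Th17 against Th0 (Fosb, Jun, Batf3 and Atf3, beside 6.32% of all genes) and 5 for Th17 against Th22 (these with Fos, beside 5.48%). Had the values been natural logs, 3 members (Fosb, Jun and Atf3) would have been past 2-fold for Th17 against Th0, beside 5.12% of all genes. Of the 30 differences of single members quantile normalization moved 7 by more than the probe SD. They were Fosb for Th17 against Th22 (-1.01 log2) and Th17 against Th0 (-0.49 log2), Batf3 for the same comparisons (-0.39 log2 in each), and Atf3 for Th22 against Th0 (-1.78 log2), for Th17 against Th0 (-2.96 log2) and for Th17 against Th22 (-1.18 log2). Over all genes it changed the share past 2-fold for Th22 against Th0 from 0.808% to 1.54%. Leaving out each member in turn kept the sign of each median difference. The medians ran from 0.08 to 0.20 log2 for Th22 against Th0 and from -0.28 to -0.09 log2 for Th17 against Th0. For Th17 against Th22 they ran from -0.29 to -0.23 log2. Such a median can only be a value next to the full median, so the kept sign says little, and members are not replicates. No paired analysis was possible because each group has 1 array. The centred values carry no signal over background, so a small difference may belong to a gene near background.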
